A study of Mus musculus with 21 samples.

Results

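The genes described here are the ligands and receptors of the VEGF and angiopoietin systems: the ligand genes Vegfa, Vegfb, Vegfc and Pgf with the receptor genes Flt1, Kdr and Flt4, and the ligand genes Angpt1 and Angpt2 with the receptor gene Tek. They were taken by symbol from the platform annotation, and all 10 had a row of their own among the 25428 rows of the table, 24705 of which carry a symbol. Affymetrix arrays were hybridised with total RNA of whole liver from 21 mice whose diet is labelled std, 1 array per liver. The 10 Gata4-LSEC-KO livers, called knockout livers here, came from crosses of the Clec4g-icre driver line C57BL/6N-Tg(Clec4g-icre)1.1Sgoe with the floxed Gata4 line STOCK Gata4tm1.1Sad/J, and the 11 control livers, labelled wt, came from siblings. The labels do not say whether controls carried the driver or the floxed allele, and name neither sex nor age. Cre was driven by sequence of Clec4g, a lectin gene of liver sinusoidal endothelium, so RNA of whole liver also holds transcripts of cells that the driver is not meant to reach. Sample numbers fell into 2 runs of consecutive values. Run 1 held 4 knockout and 5 control livers, run 2 held 6 knockout and 6 control livers, and the fit included a term for run.

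Liver sinusoids are lined by fenestrated endothelium that depends on VEGF made by neighbouring cells, hepatocytes being a known source of VEGF-A. VEGF-A signals mainly through the receptor tyrosine kinase VEGFR2 (Kdr), while VEGFR1 (Flt1) binds VEGF-A, VEGF-B and placental growth factor tightly, has weak kinase activity and acts in part as a trap. VEGF-C acts through VEGFR3 (Flt4), the receptor of lymphatic vessels that sinusoidal endothelium carries too. Angiopoietin 1, made by perivascular cells, activates the receptor TIE2 (Tek) and stabilises vessels, and angiopoietin 2, released by endothelium, blocks or activates TIE2 depending on context.

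Promoter sequences are shown first for the member that passed the test (Vegfa) and the other member with the searched GATA letters (Tek). Those of the receptor pair whose values followed each other most closely (Flt1 and Kdr) come next. They come from RefSeq on GRCm38.p6, run 5′ to 3′ on the strand of the gene, and span 250 bases before to 50 after an annotated start; 8 of the 10 genes matched, with 10 starts among them. Vegfa lies at chr17:46032328-46032627 (minus strand), Tek at chr4:94739039-94739338 (plus strand), Flt1 at chr5:147725962-147726261 (minus strand) and Kdr at chr5:75978406-75978705 (minus strand). Capitals mark AGATAA or TGATAA, the letters searched on both strands for the GATA motif, and ACGTG, the core of a hypoxia response element.
Vegfa: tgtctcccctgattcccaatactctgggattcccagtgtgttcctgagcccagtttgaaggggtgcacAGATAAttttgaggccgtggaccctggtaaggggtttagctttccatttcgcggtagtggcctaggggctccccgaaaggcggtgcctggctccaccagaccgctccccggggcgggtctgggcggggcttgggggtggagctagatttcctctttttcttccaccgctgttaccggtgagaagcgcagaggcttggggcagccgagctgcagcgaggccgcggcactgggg
Tek: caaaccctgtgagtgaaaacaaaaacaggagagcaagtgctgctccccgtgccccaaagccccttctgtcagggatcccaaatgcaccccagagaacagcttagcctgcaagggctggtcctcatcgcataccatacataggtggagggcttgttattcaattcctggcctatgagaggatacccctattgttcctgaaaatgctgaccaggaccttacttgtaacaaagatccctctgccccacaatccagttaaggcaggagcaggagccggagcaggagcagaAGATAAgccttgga
Flt1: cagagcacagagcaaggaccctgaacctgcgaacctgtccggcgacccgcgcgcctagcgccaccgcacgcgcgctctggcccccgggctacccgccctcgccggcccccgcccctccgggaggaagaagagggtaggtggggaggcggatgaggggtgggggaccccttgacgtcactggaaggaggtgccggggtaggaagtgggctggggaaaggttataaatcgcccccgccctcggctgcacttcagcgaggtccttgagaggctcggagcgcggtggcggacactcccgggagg
Kdr: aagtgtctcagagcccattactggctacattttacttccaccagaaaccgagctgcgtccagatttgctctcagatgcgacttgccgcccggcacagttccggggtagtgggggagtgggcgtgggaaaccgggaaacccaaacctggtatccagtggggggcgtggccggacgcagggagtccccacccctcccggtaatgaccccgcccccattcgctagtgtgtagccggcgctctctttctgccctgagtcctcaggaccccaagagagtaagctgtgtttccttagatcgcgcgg
In Vegfa the GATA letters begin at base 69 of the 300 shown, and in Tek at base 287. None of these letters was found in the Flt1 and Kdr windows shown. Windows of Vegfb, Vegfc, Pgf and Flt4 held none of the searched letters. The hypoxia letters ACGTG were found in 1 member window, that of a second Vegfa start (chr17:46025114-46025413, minus strand). Of all 32851 promoters of this length, 18.6% held the searched GATA letters and 19.6% the searched hypoxia letters. A match of this kind describes the letters and not a bound site.

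Most of the VEGF and angiopoietin genes did not differ between genotypes past the threshold; Vegfa, the main ligand, was the exception and was modestly lower in knockout livers. Tested with limma over all 25428 rows with Benjamini-Hochberg adjustment and a threshold of 0.05, 1 of the 10 genes fell and none rose, while 7.33% of all rows passed, 4.05% lower and 3.28% higher. At an unadjusted p under 0.05 Vegfa was lower and Angpt2 higher. With 10 genes, 1 call cannot be set apart from that background. All values are log2 RMA signals, differences are knockout minus control on that scale, and the number of arrays limits the precision. In whole liver, fewer cells of a type and less RNA per cell cannot be told apart.

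**Figure D1:**
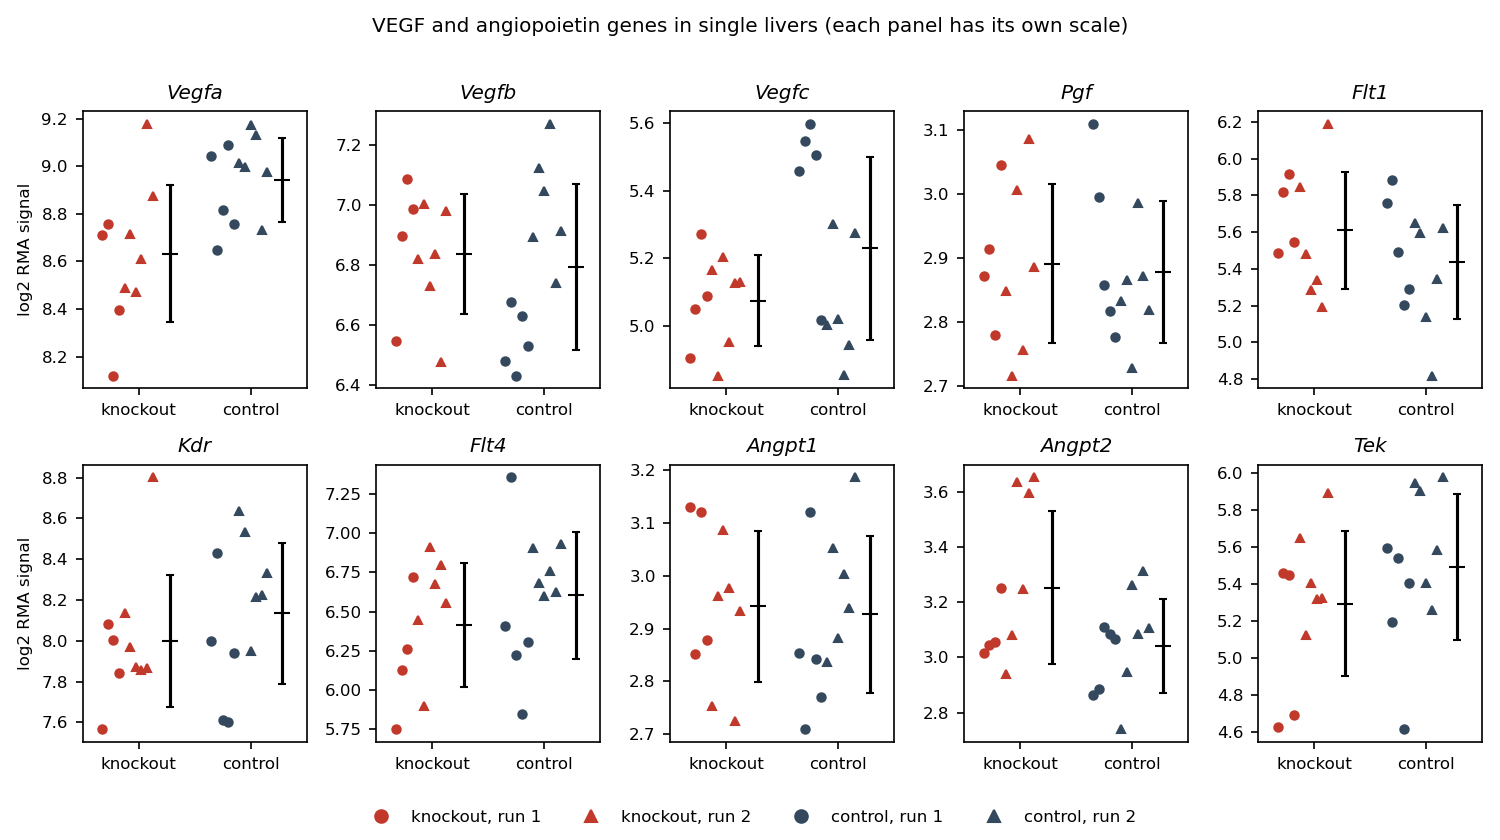
Log2 RMA signal (y axis, a separate scale in each panel) of the 10 genes in each liver, knockout livers in red at left and control livers in dark blue at right. Circles are run 1 and triangles run 2, and the black bar at the right of each group is its mean ± SD (n = 10 knockout, n = 11 control). For Vegfa, 9 of 10 knockout livers lie below the control mean of their run and 5 below every control. The groups overlap in every panel.

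Among the ligands, Vegfa had log2 values from 8.12 to 9.18 in knockout livers (median 8.66), against 8.65 to 9.18 in controls (median 8.998). In run 1 the 4 knockout livers had 8.71, 8.76, 8.12 and 8.40, against 9.04, 8.65, 8.82, 9.09 and 8.76 in the 5 controls. In run 2 knockout livers ran from 8.47 to 9.18 with a median of 8.66, against 8.73 to 9.18 with a median of 9.01 in controls. Groups overlapped, with 5 knockout livers below the lowest control. Knockout replicate 9 had the highest value of all livers and alone of the 10 knockout livers lay above the control mean of its run. Means were 8.63 ± 0.29 (SD, n = 10) in knockout livers and 8.94 ± 0.18 (SD, n = 11) in controls. Vegfa fell by 0.32 ± 0.095 (SE, log2), 1.25-fold, with an adjusted p of 0.043 in limma and a 95% interval of -0.52 to -0.12. Differences were -0.37 in run 1 and -0.28 in run 2, and their difference did not pass (adjusted p = 0.92 in limma). This call lay close to the threshold. It was lost without knockout replicate 3, 4, 5, 6, 7 or 8 and without control replicate 1, 4, 6, 7, 8, 9 or 11, 13 of 21 livers in all, with adjusted p of 0.053 to 0.084; over all 21 omissions the difference lay between -0.37 and -0.27.

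Vegfb, whose protein binds VEGFR1 and not VEGFR2, had values from 6.48 to 7.09 in knockout livers (median 6.87), against 6.43 to 7.27 in controls (median 6.74). Its difference over both runs was 0.03 ± 0.095 (SE; adjusted p = 0.89), but the runs stood apart. In run 1 knockout livers averaged 6.88 and controls 6.55, a difference of 0.33. In run 2 knockout livers averaged 6.81 and controls 6.998, a difference of -0.19. The genotype by run term had an unadjusted p of 0.0037 and an adjusted p of 0.23, which did not pass, and 10.2% of all rows had an unadjusted p under 0.05 for that term (0.0315% passed after adjustment). It was the control mean that moved more between runs.

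Vegfc, the ligand of VEGFR3, ran from 4.85 to 5.27 in knockout livers (median 5.11), against 4.85 to 5.598 in controls (median 5.27). Controls varied more, with an SD of 0.27 against 0.13 in knockout livers. The difference was -0.14 ± 0.084 (SE; adjusted p = 0.33), with -0.35 in run 1 and 0.01 in run 2 (genotype by run adjusted p = 0.45). Here too controls differed between runs, with means of 5.42 in run 1 and 5.07 in run 2, while knockout livers averaged 5.08 and 5.07. Pgf, the gene of placental growth factor, was dim on these arrays, with values from 2.72 to 3.09 in knockout livers and 2.73 to 3.11 in controls, below the array median of 3.75; whether it lay above background was not tested. Its difference was 0.02 ± 0.055 (SE), with a 95% interval of -0.10 to 0.13.

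None of the VEGF receptors passed, and their groups overlapped widely. Flt1 ran from 5.19 to 6.19 in knockout livers (median 5.52), against 4.82 to 5.89 in controls (median 5.49), a difference of 0.18 ± 0.13 (SE, 95% interval -0.09 to 0.45, adjusted p = 0.45). Kdr ran from 7.57 to 8.80 in knockout livers (median 7.92), against 7.60 to 8.63 in controls (median 8.22), a difference of -0.15 ± 0.12 (SE, 95% interval -0.41 to 0.11, adjusted p = 0.52). Knockout replicate 10 had the highest Kdr value of all livers, 8.80, with the next knockout liver at 8.14, and without it the Kdr difference was -0.23 (adjusted p = 0.24). That liver was also the highest of all for Flt1 (6.19) and the highest knockout liver for Tek (5.89). Its pan-endothelial markers stood 0.58 above the control mean of its run, the highest of the knockout livers; their part in its receptor values was not tested.

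Flt4 ran from 5.75 to 6.91 in knockout livers (median 6.5), against 5.85 to 7.36 in controls (median 6.62). Its difference was -0.21 ± 0.15 (SE; adjusted p = 0.47), -0.21 in run 1 and -0.20 in run 2. Controls of run 1 spread more widely (SD 0.56, n = 5) than those of run 2 (SD 0.14, n = 6). Over the 3 VEGF receptors the 95% intervals reach 0.45 for Flt1 and -0.52 for Flt4, so these livers do not exclude changes of that size.

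**Figure D2:**
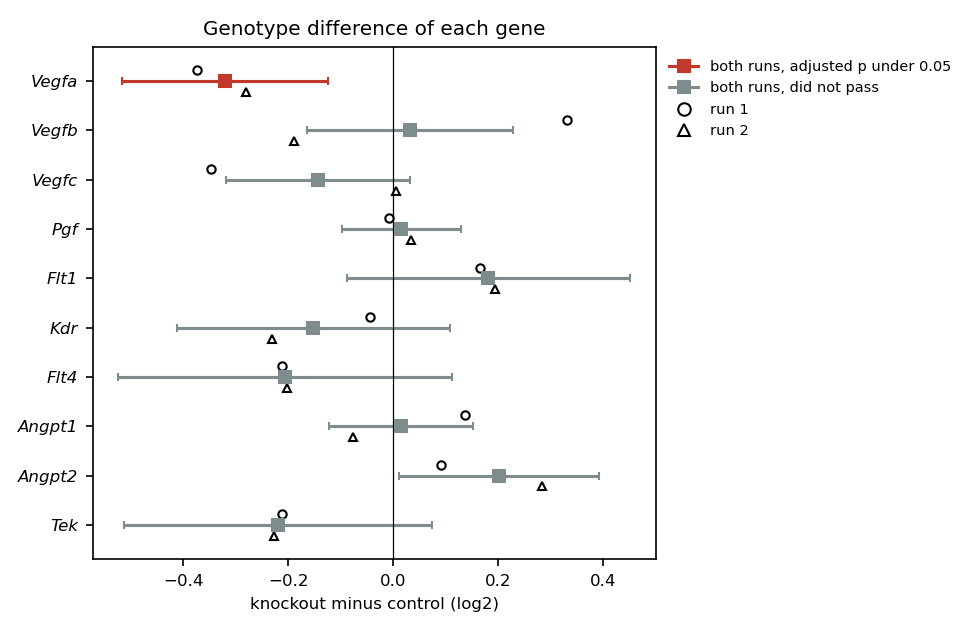
Difference in log2 signal, knockout minus control (x axis), for each of the 10 genes (y axis). Squares with bars are the fit over both runs with its 95% interval, red where the adjusted p was under 0.05 (Vegfa, -0.32) and grey otherwise, and open circles and triangles are the differences within run 1 and run 2. The runs lie on opposite sides of zero for Vegfb, with 0.33 and -0.19. They do so too for Angpt1 (0.14 and -0.077), Vegfc (-0.35 and 0.01) and Pgf (-0.01 and 0.03).

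In the angiopoietin system, Angpt2 had the second lowest p of the 10 genes. Knockout livers had values from 2.94 to 3.65 (median 3.16), against 2.74 to 3.31 in controls (median 3.08). In run 1 the 4 knockout livers had 3.02, 3.04, 3.06 and 3.25, against 2.87, 2.89, 3.11, 3.09 and 3.07 in controls, so the groups overlapped. In run 2 knockout livers had 2.94 to 3.65 (median 3.42), against 2.74 to 3.31 (median 3.10) in controls, and knockout replicates 7, 9 and 10 lay above every control. In 9 of 10 knockout livers Angpt2 was above the control mean of its run, and the fitted difference was 0.20 ± 0.092 (SE, 95% interval 0.01 to 0.39), which did not pass in limma (p = 0.039, adjusted p = 0.19). All Angpt2 values lay below the array median of 3.75, and whether they lay above background was not tested.

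Angpt1, the TIE2 agonist, ran from 2.73 to 3.13 in knockout livers (median 2.95), against 2.71 to 3.19 in controls (median 2.88), with a difference of 0.01 ± 0.066 (SE, 95% interval -0.12 to 0.15). Its difference was 0.14 in run 1 and -0.077 in run 2 (genotype by run adjusted p = 0.60 in limma). Angpt1 too lay below the array median. Set against Angpt1 within each liver, as log2 values minus the control mean of the run, Angpt2 stood at 0.20 ± 0.34 (SD, n = 10) in knockout livers, with an SD of 0.18 around zero in controls (n = 11). Its mean was -0.05 for run 1 and 0.36 for run 2. Knockout livers spread more widely in both directions, with 3 of 10 above the highest control value and 2 below the lowest. Tek, the TIE2 receptor gene, had values from 4.63 to 5.89 in knockout livers (median 5.36), against 4.62 to 5.98 in controls (median 5.54). Its difference was -0.22 ± 0.14 (SE; adjusted p = 0.39), -0.21 in run 1 and -0.23 in run 2, with 3 of 10 knockout livers above the control mean of their run.

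Flt1, Kdr and Tek varied together from liver to liver. After the mean of each genotype and run was subtracted, Flt1 and Kdr had a Pearson r of 0.82 over the 21 livers (Spearman rho 0.77), 0.93 in knockout livers and 0.72 in controls, 0.80 in run 1 and 0.84 in run 2. Without the 2 livers farthest from the Flt1 median r was 0.82. Among all rows with a symbol each of the pair was the most correlated with the other, a likeness picked out after its values were seen. Flt1 and Tek had an r of 0.75 and Kdr and Tek 0.61. Flt4 had 0.43 with Kdr and its highest, 0.55, with the ligand Pgf. Ligands did not follow each other in this way: the ligand pair with the highest r was Vegfc and Angpt1 at 0.27. Pgf, Angpt1 and Angpt2 lay below the array median, which limits what their correlations can show. Among the brighter ligands, Vegfb and Vegfc had an r of 0.05, Vegfa and Vegfc -0.14, and Vegfa and Vegfb -0.24. These correlations are descriptions, and the points share liver, array and RNA extract.

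**Figure D3:**
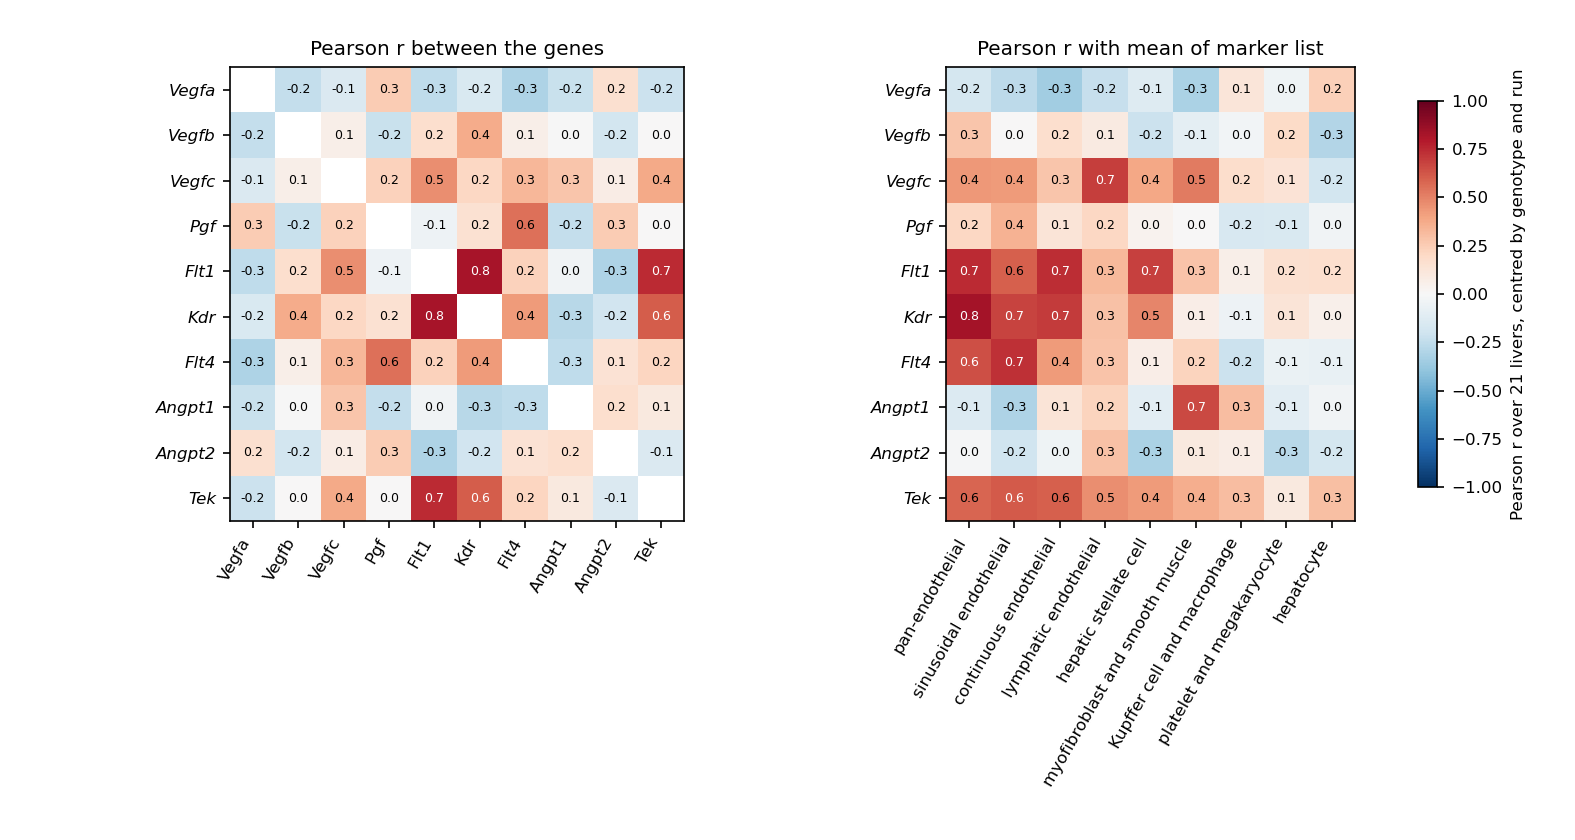
Pearson r over 21 livers after centring by genotype and run, between the 10 genes (left, the diagonal left blank) and between each gene and the mean of a marker list (right), from blue at -1 to red at 1. Flt1, Kdr and Tek form a red block at left (0.82, 0.75 and 0.61) and at right are red for the pan-endothelial, sinusoidal and continuous lists and, less so for Kdr and Tek, for stellate cell markers.

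Kdr followed the mean of 16 pan-endothelial markers (Pecam1 and Cdh5 among them, without the 10 genes) with an r of 0.83 (0.64 without the 2 livers farthest from the Kdr median), Flt1 with 0.745 and Tek with 0.59. Stellate cell markers gave 0.68 for Flt1, above its 0.595 with sinusoidal markers, 0.485 for Kdr and 0.43 for Tek. Flt4 had its highest r, 0.73, with 14 sinusoidal markers, though only 0.51 without the 2 livers farthest from the Flt4 median. Vegfc had an r of 0.70 with 8 lymphatic endothelial markers, 0.52 with myofibroblast and smooth muscle markers and 0.44 with pan-endothelial markers. The lymphatic list shares Lyve1 with the sinusoidal list and Reln with the stellate cell list, so it does not single out lymphatic vessels. Angpt1 had 0.66 with 11 myofibroblast and smooth muscle markers, which dropped to 0.38 without the 2 livers farthest from the Angpt1 median. Vegfa had an r between -0.35 (continuous endothelial markers) and 0.24 (hepatocyte markers) with the 9 lists. The rows most correlated with Vegfa, by the rule for naming them, were Cypt2 (r = 0.80), Secisbp2 (0.80) and Lingo1 (0.79), none of which passed the genotype test. The highest r of each of the 10 genes ran from 0.75 (Vegfc) to 0.865 (Flt4), with 0.85 for the dim Pgf. An r near 0.80 picked from all rows with a symbol does not set these rows apart.

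Although Kdr and Flt1 varied together, Kdr stood lower against Flt1 on average in these knockout livers than in controls. Kdr minus Flt1, each taken as log2 value minus the control mean of its run, was -0.34 ± 0.16 (SD, n = 10) in knockout livers, with an SD of 0.22 around zero in controls (n = 11). Knockout livers ran from -0.66 to -0.095, against -0.27 to 0.44 in controls. All 10 knockout livers were below zero, 8 of them below the lowest control, with means of -0.21 in run 1 and -0.42 in run 2, and leaving out knockout replicate 10 left it at -0.34. The pair was singled out with these values known, so the shift carries no test. How many other pairs of genes shifted as far was not counted, and neither gene passed by itself. Against the mean of the pan-endothelial markers, Kdr stood at -0.36 ± 0.18 (SD) in knockout livers, Tek at -0.42 ± 0.26 and Flt4 at -0.41 ± 0.33, while Flt1 stood at -0.02 ± 0.24. The pan-endothelial list was itself higher in knockout livers, with a median difference of 0.17 over its members. A gene that did not change therefore stands lower against that list, and these shifts carry no test. Against the mean of the sinusoidal markers all 4 stood higher in knockout livers, Kdr at 0.34 ± 0.31, Tek at 0.28 ± 0.23, Flt4 at 0.295 ± 0.295 and Flt1 at 0.68 ± 0.32. Knockout livers above the highest control numbered 6 for Kdr, 2 for Tek, 3 for Flt4 and 10 for Flt1, whose lowest knockout and highest control values both round to 0.197. The sinusoidal list itself was lower in knockout livers, with 9 of 14 members past the threshold. A gene that did not change therefore stands higher against it, so these shifts and counts carry no test. By its own log2 values, Flt1 had 2 knockout livers above the highest control. How many of all rows would stand higher against the list was not counted.

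**Figure D4:**
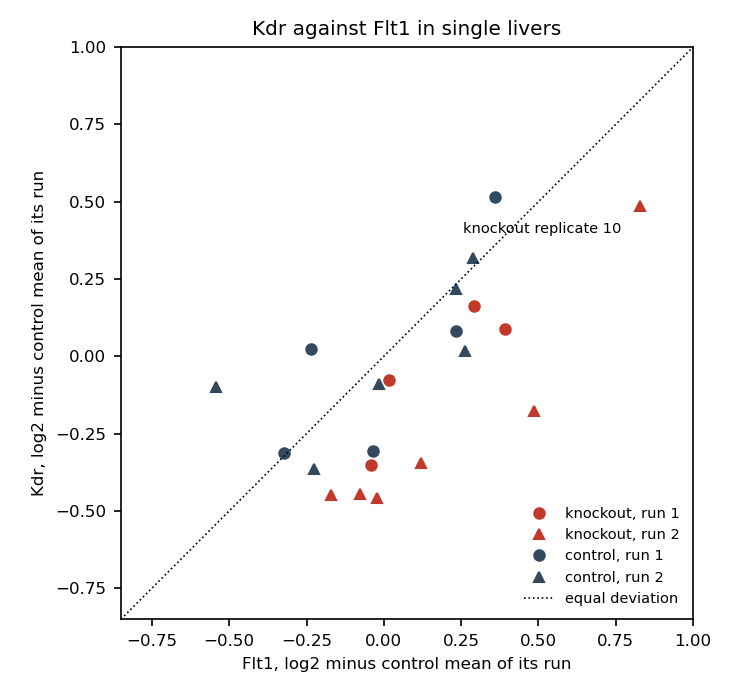
Kdr (y axis) against Flt1 (x axis) in each liver, both as log2 signal minus the control mean of its run, with knockout livers in red, controls in dark blue, circles for run 1 and triangles for run 2. Points on the dotted line deviate equally in both genes; all 10 knockout livers lie below it, by 0.34 on average.

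Those marker lists themselves differed between genotypes, which touches each endothelial gene above; over all rows 4.05% were lower and 3.28% higher, and lists with 1 call are not set apart from those shares. Sinusoidal markers had 9 of 14 lower and none higher, with mean log2 levels from 6.09 to 6.81 in knockout livers and 6.54 to 7.43 in controls. Continuous endothelial markers had 7 of 11 higher and 1 lower, with mean levels from 5.22 to 5.68 in knockout livers and 4.63 to 5.14 in controls. Pan-endothelial markers had 3 of 16 higher (5.25 to 5.91 in knockout livers, 5.04 to 5.67 in controls), and lymphatic endothelial markers had 1 of 8 higher (4.91 to 5.36, against 4.92 to 5.39 in controls). Stellate cell markers had 5 of 16 higher (6.60 to 7.05, against 6.26 to 6.82 in controls) and myofibroblast and smooth muscle markers 2 of 11 (4.91 to 5.62, against 4.29 to 5.91). Kupffer cell and macrophage markers had 8 of 15 higher (6.18 to 6.83, against 5.11 to 6.81 in controls) and platelet markers 1 of 6 (3.84 to 4.81, against 3.69 to 4.10). Hepatocyte markers, all 13 above the array median in controls, had 1 lower (12.05 to 12.34, against 12.15 to 12.39 in controls). RMA values have no 0; the platelet list was the dimmest, with 2 of 6 members above the array median in controls. The marker lists were chosen with earlier results of these data known, so their counts carry no test. The part of these shifts in the values of the 10 genes was not tested. Gata4 itself averaged 6.53 in knockout livers and 6.73 in controls, with a difference of -0.19 ± 0.10 (SE, adjusted p = 0.26) in whole liver, and where its probes lie in relation to the floxed segment is not known here.

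Beyond the 10 genes, the coreceptors, further ligands and processing factors of the system had 1 of 15 members lower and none higher, beside 4.05% lower and 3.28% higher over all rows. Their median difference was -0.05, against -0.01 over all rows. The count lower was 2 without knockout replicate 2 and in run 2 alone, and the count higher was 1 without knockout replicate 2, 5 or 6 or control replicate 3, 6 or 11. The member that fell was Ptprb, the endothelial phosphatase VE-PTP that holds TIE2 and VEGFR2 signalling in check. It averaged 7.81 ± 0.22 (SD, n = 10) in knockout livers and 8.36 ± 0.29 (SD, n = 11) in controls, a difference of -0.56 ± 0.11 (SE, adjusted p = 0.0043). Every knockout liver was below every control, which held for 0.0393% of all rows. The neuropilins, coreceptors of the VEGF receptors, did not pass: Nrp1 had -0.33 ± 0.15 (adjusted p = 0.19) and Nrp2 -0.42 ± 0.15 (adjusted p = 0.098), the second with -0.01 in run 1 and -0.72 in run 2. Tie1, the partner receptor of TIE2 and also a pan-endothelial marker here, had 0.23 ± 0.13 (adjusted p = 0.34); the neuropilins and Tie1 were named with their values known.

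Signal transducers below the receptors had 2 of 23 lower and 1 higher, with a median of -0.06, beside 4.05% lower and 3.28% higher over all rows. Without control replicate 3 the count higher was 2. Sos1, the exchange factor that activates RAS, had a difference of -0.42 ± 0.068 (SE, adjusted p = 0.0014), each of the 10 knockout livers lying below the run's control mean. Nos3, which makes nitric oxide in endothelium, had -0.43 ± 0.084 (adjusted p = 0.0049). Foxo1, the transcription factor that TIE2 signalling through AKT keeps inactive and that drives Angpt2 in endothelium, rose by 0.50 ± 0.10 (adjusted p = 0.0065). Foxo1 averaged 8.42 ± 0.23 (SD, n = 10) in knockout livers and 7.92 ± 0.25 (SD, n = 11) in controls, and Foxo1 is also widely expressed in hepatocytes. Plcg1, Akt1, Src and the remaining members did not pass.

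Genes that VEGF induces in endothelium had 6 of 21 members higher and none lower, beside 3.28% higher over all rows, with a median difference of 0.24. This list, like the others, was chosen with earlier results of these data known, so its count carries no test. Esm1, a tip cell proteoglycan, averaged 5.50 ± 0.99 (SD, n = 10) in knockout livers and 3.42 ± 0.16 (SD, n = 11) in controls. Esm1 had a difference of 2.05 ± 0.25 (SE, adjusted p = 1.71e-04), 1.26 in run 1 and 2.64 in run 2 (genotype by run adjusted p = 0.24). Plvap, the protein of fenestral diaphragms, rose by 0.86 ± 0.12 (SE, adjusted p = 3.49e-04) and Cd34, a sialomucin of capillaries, by 0.77 ± 0.11 (SE, adjusted p = 6.03e-04). Apln, a tip cell peptide, rose by 0.37 ± 0.084 (SE, adjusted p = 0.011) and was dim, at 3.13 in knockout livers and 2.76 in controls. Adamts9, a matrix protease (0.54 ± 0.13, adjusted p = 0.016), and Cxcr4, a chemokine receptor (0.60 ± 0.18, adjusted p = 0.048), also rose and were named with their values known. The Cxcr4 call was lost without knockout replicate 3, 4, 7, 9 or 10 and without every control replicate but 3 (adjusted p of 0.052 to 0.091). Every knockout liver was above every control for Esm1 and Cd34, which held for 0.0905% of all rows. Dll4, the Notch ligand of tip cells, had 0.24 ± 0.12 (adjusted p = 0.24), and the early response genes Egr3 and Nr4a1 had -0.01 ± 0.048 and -0.34 ± 0.32; none of these 3 passed, and they were named with their values known. Plvap, Cd34 and Apln also stand on the continuous endothelial list, whose markers were higher as given above, and their part here was not tested.

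**Figure D5:**
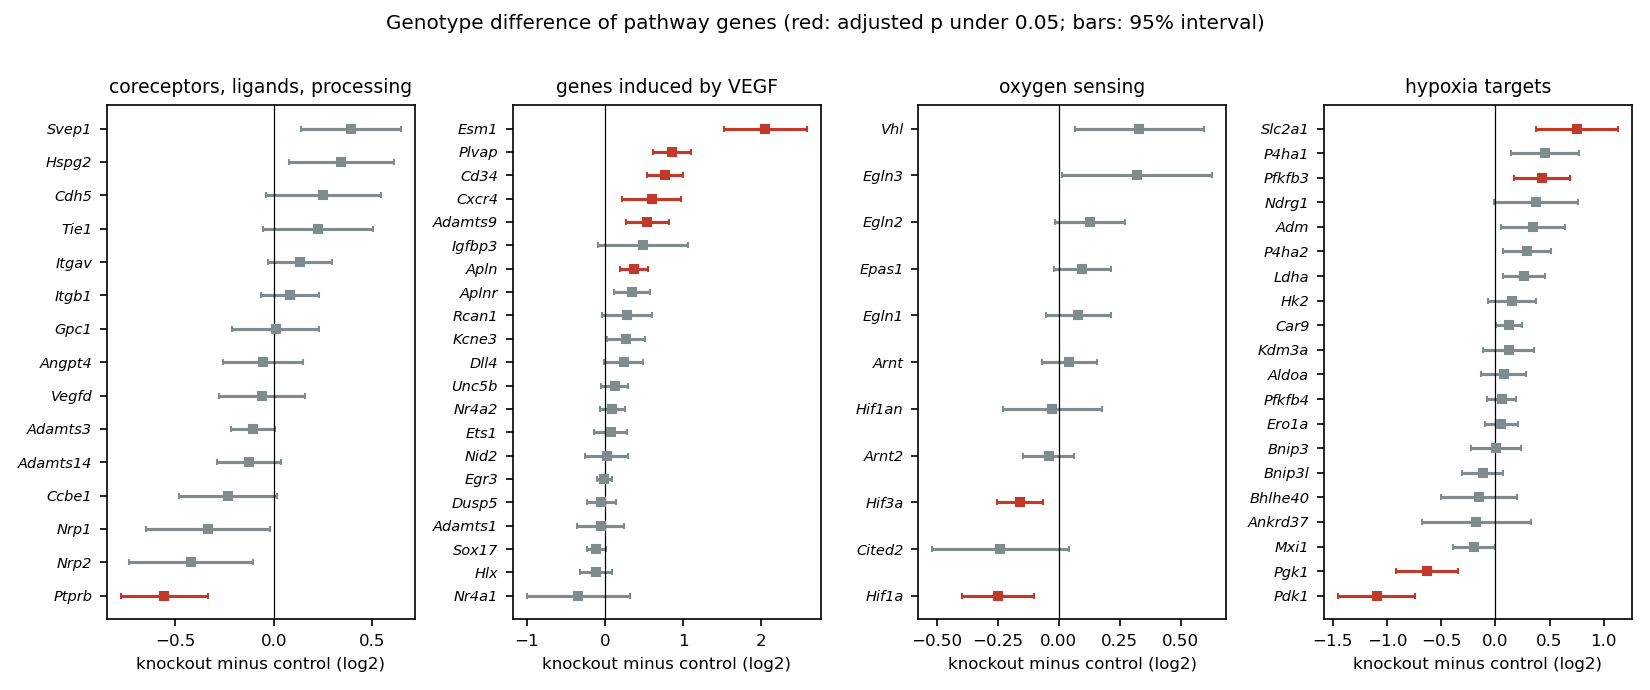
Difference in log2 signal, knockout minus control (x axes, a separate scale in each panel), of the measured members of 4 pathway lists, ordered by size from top to bottom. Squares are the fit over both runs with its 95% interval, red where the adjusted p was under 0.05: 1 of 15 coreceptors, ligands and processing factors, 6 of 21 genes induced by VEGF, 2 of 11 oxygen sensing genes and 4 of 20 hypoxia targets.

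Vegfa is a classical target of hypoxia-inducible factors, so genes of oxygen sensing were read beside it. Of 11, Hif1a and Hif3a fell and none rose, with a median of 0.04, beside 4.05% lower and 3.28% higher over all rows. Without knockout replicate 6 the count higher was 1. Hif1a, the inducible alpha subunit, averaged 7.39 ± 0.13 (SD, n = 10) in knockout livers and 7.65 ± 0.19 (SD, n = 11) in controls, a difference of -0.25 ± 0.071 (SE, adjusted p = 0.035). That call was lost without knockout replicate 1, 3, 4, 7, 9 or 10 or control replicate 6, 7 or 8 (adjusted p of 0.052 to 0.068). Hif3a, dim at 3.41 in knockout livers and 3.57 in controls, had -0.16 ± 0.045 (adjusted p = 0.037), which no longer passed without knockout replicate 2, 3, 4, 7, 8 or 9 or control replicate 2, 3, 5, 8, 9 or 10 (adjusted p of 0.051 to 0.075). Epas1, the alpha subunit that dominates in endothelium, had 0.10 ± 0.056 (adjusted p = 0.33) and was named with its value known.

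Other hypoxia targets held calls in both directions. Of 20 measured, 2 rose and 2 fell, with a median of 0.10, beside 3.28% higher and 4.05% lower over all rows. The count lower stayed at 2 whichever liver was left out. The count higher was 5 without control replicate 1, and 1 without knockout replicate 4, 6, 7, 8 or 9 or control replicate 4, 5, 6, 7 or 9. Pdk1, the kinase that inhibits pyruvate dehydrogenase, averaged 7.79 ± 0.52 (SD, n = 10) in knockout livers and 8.88 ± 0.28 (SD, n = 11) in controls, a fall of 1.10 ± 0.17 (SE, adjusted p = 0.0011). Pgk1, a glycolytic kinase, fell by 0.63 ± 0.14 (adjusted p = 0.009). Slc2a1, the glucose transporter GLUT1, rose by 0.75 ± 0.18 (adjusted p = 0.016), and Pfkfb3, a regulator of glycolysis, by 0.43 ± 0.12 (adjusted p = 0.038). The Pfkfb3 call was lost without knockout replicate 3, 4, 6, 7, 8 or 9 or control replicate 3, 4, 5, 6, 7, 9 or 11 (adjusted p of 0.05 to 0.072). None of the 5 measured angiopoietin-like genes, secreted relatives that do not bind TIE2, passed; Angptl4, an inhibitor of lipoprotein lipase, had -0.67 ± 0.29 (adjusted p = 0.16).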

How the data were processed

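Total RNA of whole liver was measured on Affymetrix arrays, 1 per liver. The authors deposited log2 values made with RMA, as the submitters' processing notes record; the method subtracts background, sets all arrays to a common distribution and summarises the probes of a gene. Not given in the sources used here are its version, the array design and the build. Sorted values of the 21 columns differed by at most 0.00193, and each column's median was 3.75. Symbols came from the platform annotation (24705 rows with 1 symbol, 723 with none).

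All 25428 rows were fitted without a filter in limma 3.58.1 (lmFit, then eBayes; R 4.3.3), with genotype and run as terms; p-values were adjusted by Benjamini-Hochberg over all rows, and standard errors and 95% intervals come from that fit. Runs are 2 blocks of consecutive sample numbers, which the labels do not call batches. A fit over 4 genotype by run cells gave differences within runs and their difference. Labels call the samples biological replicates, so each array was taken as 1 animal; no 2 arrays were identical. Genes named are the 10 members, up to 4 passing members of lowest adjusted p from each pathway list (or else the 1 of lowest p), the 3 rows most correlated with each passing member, and those said to be named with values known. The members and lists were chosen with earlier results of these data known. The fit was tested on simulated data. Alternatives were no run term, each run alone, replicate number as a block, median centring, a second quantile normalization, a filter at the median, an intensity trend with robust prior, array weights, each liver left out, and, added after seeing the data, the 2 arrays least like their group left out. Figures used matplotlib 3.10.9.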

Additional observations from a re-analysis of the deposited data

Results flagged for a closer look

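Kdr in knockout replicate 10 had a log2 value of 8.80, with the next knockout liver at 8.14; the gap of 0.536 of the group's range exceeds Dixon's 95% critical value for 10 samples. Chance gives such a gap in about 1 in 20 groups, and 10 genes were looked at. Only the knockout group was examined this way, since the control group of 11 is larger than that test was applied to here. The gap was taken with run not removed, while control means of Kdr were 7.92 in run 1 and 8.32 in run 2. Measured from the control mean of its run, replicate 10 stood at 0.48. On that scale the next knockout liver stood at 0.16 and the lowest at -0.46, and the gap was not tested. Flt1 (6.19) and Tek (5.89) were also at the top of the knockout group in that liver, with gaps of 0.273 and 0.191 of the range. Without it the Kdr difference was -0.23 (adjusted p = 0.24 in limma).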

How the results depend on the processing

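Vegfa was lower in every alternative run, from -0.37 to -0.27, but its call depended on the setting. The count of the 10 genes that were lower was 0 in place of 1 without the run term (adjusted p of Vegfa 0.066), in run 1 alone (0.37), in run 2 alone (0.18), with the replicate block (0.11) and without the 2 arrays least like their group (0.06), and ranged from 0 to 1 when single livers were left out. It stayed at 1 with median centring, a second quantile normalization, the filter at the median, the intensity trend with robust prior and array weights. No alternative gave a higher gene among the 10. The labels give same-numbered livers a shared number and name no pairing. Deviations of such livers correlated at -0.055 to 0.17, over 0.1 in 2 of 10 pairs, with a median of 0.0038 over all knockout to control pairs. Whether they were paired was not tested.

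The differences of Pgf, Vegfb, Vegfc and Angpt1 changed sign between settings. Pgf was -0.00893 in run 1 alone, -0.000363 with the replicate block, and -0.0083 to 0.0359 without single livers. Vegfb was 0.33 in run 1 alone, -0.19 in run 2 alone, -0.0045 without the 2 arrays, and -0.0159 to 0.0804 without single livers. Vegfc was -0.35 in run 1 alone and 0.0059 in run 2 alone. Angpt1 was -0.077 in run 2 alone and -0.012 to 0.041 without single livers. Run 1 alone gave no call in any pathway list. Genes induced by VEGF had 3 higher with the replicate block, 4 in run 2 alone and 5 to 7 without single livers; the block also lost Apln (adjusted p = 0.053), Adamts9 (0.067), Cxcr4 (0.082), Hif3a (0.09) and Pfkfb3 (0.15), and Adamts9 was lost without the run term (0.17). Oxygen sensing, coreceptor and transducer genes each had 1 more higher call without the 2 arrays, and coreceptors also with the filter at the median. Hif3a was lost with the trend (0.066) and Hif1a with array weights (0.054). Run 2 alone lost Foxo1, Apln, Cxcr4, Hif1a, Hif3a, Pgk1, Slc2a1 and Pfkfb3. Pfkfb3 was lost (0.083) and Angptl4 passed without the 2 arrays (0.041). Over all rows, run 1 alone gave 2 higher and 1 lower genes and run 2 alone 552 and 735, against 834 and 1030. The replicate block left 602 lower genes, and single livers left 565 to 981 higher and 629 to 1471 lower. The causes were not tested. Signals of Pgf, Angpt1 and Angpt2 lie below the array median, which limits what their intervals can show.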
